A study of Homo sapiens with 8 samples.

Results

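The 10 genes described here encode 7 transcription factors of the E2F family (E2F1, E2F2, E2F3, E2F4, E2F5, E2F7 and E2F8) and the 3 RB pocket proteins that bind them (RB1, RBL1 and RBL2). They were taken by symbol from a table of 58735 genes, and all 10 were found. Their transcripts were measured by RNA sequencing of poly(A)-selected RNA from PC3, an established line of human prostate cancer cells. Of the 8 libraries, 4 were labelled siCtrl (genotype WT in the labels) and 4 were labelled siPRMT7 (genotype PRMT7 knockdown). Cells of both groups were transfected with synthetic RNA by lipofection and cultured for a further 48 h, so the controls were transfected as well. The sample titles use the prefix si and the library names the prefix sh. The labels do not say whether replicates came from separate cultures, so p-values measure only the spread between these libraries, which may be technical. The title of the series concerns the arginine methyltransferase PRMT7 and the cell cycle, and the comparison asks whether these regulators of the step from G1 into S phase differ between the groups.

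E2F factors bind DNA as dimers with a DP partner and control genes for DNA replication and mitosis. In resting and early G1 cells the pocket proteins cover the activation domain of E2F factors and recruit repressors. Cyclin-dependent kinases then phosphorylate the pocket proteins and set the factors free. E2F1, E2F2 and E2F3 are known as activators, and E2F4 and E2F5 as repressors that work with RBL1 (p107) and RBL2 (p130) in the DREAM complex. E2F7 and E2F8, the atypical members, bind without a DP partner or a pocket protein and repress E2F target genes later in S phase. E2F1, E2F2, E2F3, E2F7, E2F8 and RBL1 are themselves targets of E2F factors. PC3 cells lack p53 and retain RB1.

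Library totals, rebuilt from the deposited values, ranged from 14526030 to 15724862 fragments. PRMT7, the targeted gene, had 5.24, 4.86, 5.10 and 5.25 FPKM (fragments per kilobase of gene and per library size) in siCtrl replicates 1 to 4, and 4.62, 4.31, 5.01 and 4.82 FPKM in the siPRMT7 replicates. The ratio of means was 0.917, and the groups overlapped through siPRMT7 replicate 3. PRMT7 did not pass the test across all genes (limma adjusted p = 0.428), so the groups are compared here as labelled. The library of siPRMT7 replicate 2 stood apart: its share of ribosomal protein fragments was 3.89%, and that of the other 7 libraries 2.93 to 3.41%. Of 5 epithelial markers, KRT8, KRT18, KRT19 and EPCAM were above 1 FPKM in every library and CDH1 was below 1 in every library. Of 8 markers of leukocytes, endothelium, fibroblasts and muscle, 6 were below 1 FPKM in every library, CD3E being at 0 in all of them. PECAM1 (3.34 FPKM in siCtrl) and COL1A1 (6.79 FPKM) were the exceptions, and the summed level of the 8 markers was 10.2 to 11.7 FPKM across siCtrl and 10.0 to 11.5 FPKM across siPRMT7 libraries.

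The promoters of these genes differ in whether they carry sequences that E2F factors are known to bind. RefSeq promoter windows on GRCh38.p14, from 250 bases before to 50 bases after a start, were found for 8 of the 10 genes. E2F3 and RBL2 had several windows, which made 10 in all. They were searched on both strands for TTTCCCGC, TTTCGCGC, TTTGCCGC and TTTGGCGC. Of the 8 genes, 4 had a window with a match (E2F1, E2F2, E2F3 and RBL1), against 3.99% of the 27305 genes in the promoter table and 3.31% of its 35116 windows. Below are E2F1 (chr20:33686336-33686635, minus strand) and RBL1 (chr20:37095948-37096247, minus strand), each with a pair of matches. They are followed by E2F7 (chr12:77065520-77065819, minus strand) and E2F4 (chr16:67191905-67192204, plus strand), which held none of these letters. The 4 show windows with and without matches for genes with separate groups (RBL1 and E2F7) and with overlapping groups (E2F1 and E2F4). Each is written 5′ to 3′ on the strand of the gene, and capitals mark the matches.
E2F1: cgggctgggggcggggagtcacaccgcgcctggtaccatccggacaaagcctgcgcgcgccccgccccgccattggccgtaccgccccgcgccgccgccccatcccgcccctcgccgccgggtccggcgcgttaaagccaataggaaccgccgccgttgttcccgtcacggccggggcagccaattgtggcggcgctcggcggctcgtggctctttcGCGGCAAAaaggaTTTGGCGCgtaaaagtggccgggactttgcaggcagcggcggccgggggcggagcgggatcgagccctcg
RBL1: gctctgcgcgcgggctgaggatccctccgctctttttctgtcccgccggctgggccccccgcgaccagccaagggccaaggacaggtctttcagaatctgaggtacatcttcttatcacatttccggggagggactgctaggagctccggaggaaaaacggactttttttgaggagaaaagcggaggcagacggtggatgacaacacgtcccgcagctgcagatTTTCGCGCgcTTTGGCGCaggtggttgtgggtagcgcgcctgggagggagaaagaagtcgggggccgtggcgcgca
E2F7: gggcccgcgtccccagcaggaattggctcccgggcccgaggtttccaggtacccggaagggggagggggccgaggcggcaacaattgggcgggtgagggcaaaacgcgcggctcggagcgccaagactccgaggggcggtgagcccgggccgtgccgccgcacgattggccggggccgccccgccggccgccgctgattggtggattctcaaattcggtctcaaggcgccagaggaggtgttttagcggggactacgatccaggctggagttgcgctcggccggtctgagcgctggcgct
E2F4: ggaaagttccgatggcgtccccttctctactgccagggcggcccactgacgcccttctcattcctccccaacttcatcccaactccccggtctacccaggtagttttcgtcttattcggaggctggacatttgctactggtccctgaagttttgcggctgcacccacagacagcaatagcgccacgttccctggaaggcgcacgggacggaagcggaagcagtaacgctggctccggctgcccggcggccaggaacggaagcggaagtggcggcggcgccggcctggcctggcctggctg
In E2F1 the matches lay at -33 to -26 (TTTGCCGC, read on the opposite strand) and at -20 to -13 (TTTGGCGC) from the start. In RBL1 they lay at -26 to -19 (TTTCGCGC) and at -16 to -9 (TTTGGCGC). E2F2 had TTTGGCGC at -42 to -35, and the upstream window of E2F3 had TTTCCCGC at -53 to -46 on the opposite strand. The second E2F3 window had none, and gene-level values do not separate transcripts from these starts. The window for RB1 began at 48476200, inside the gene, which starts at 48303726, so it does not describe the first RB1 promoter. A match is a run of letters and says nothing of binding in these cells.

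All 10 genes passed the filter on low values (at least 1 FPKM in at least 4 of the 8 libraries) and were tested together with the other expressed genes, 13436 in all. In the siPRMT7 libraries 9 of the 10 had a lower mean and 1, E2F4, a higher mean. E2F7, RB1 and RBL1 lay below every siCtrl library in all 4 siPRMT7 libraries. With limma on log2(FPKM + 1), 0 of the 10 passed an adjusted p of 0.05 over all genes tested, and at an unadjusted p under 0.05 there were 3, all lower. The limma adjusted call was rare in this comparison, with 0.0149% of all genes (2 genes, both higher). Unadjusted p under 0.05 with a lower level was met by 5.49% of all genes, and complete separation below siCtrl by 4.43%. Separation above siCtrl, which 0 of the 10 showed, was met by 4.14%. A fold change below 0 was met by 50.5%. The 10 genes were chosen with earlier results of these data known, so their counts are not independent evidence. The median log2 fold change of the 10 genes was -0.09, from -0.19 to 0.07, and that of all genes tested was -0.0015. Without siPRMT7 replicate 2, the library that stood apart, 9 of the 10 were again lower, and the log2 fold changes of E2F7, RBL1 and RB1 were -0.14, -0.16 and -0.13. In bulk RNA, fewer cells in a cell cycle phase and less RNA per cell cannot be told apart.

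**Figure D1:**
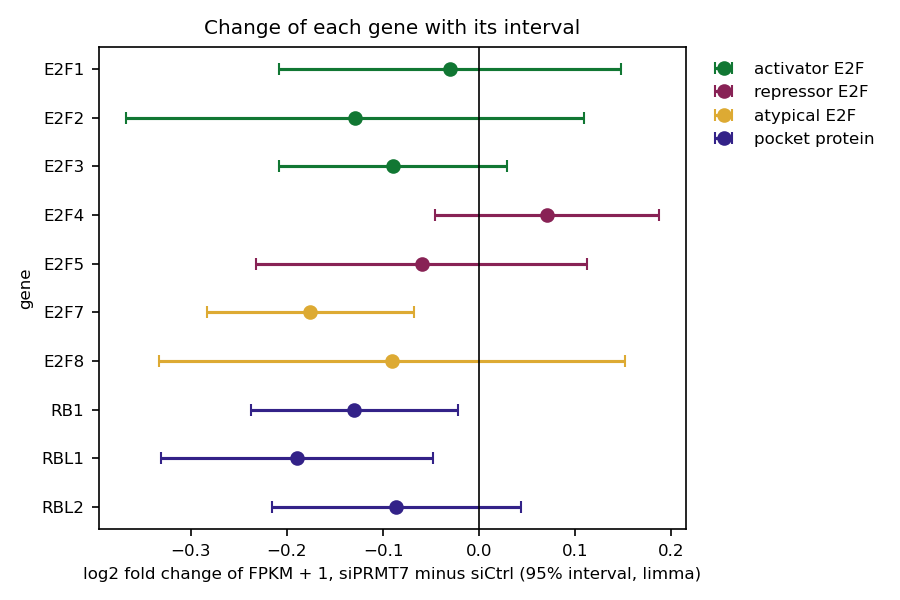
Log2 fold change of FPKM + 1 (horizontal axis, siPRMT7 minus siCtrl, 4 libraries each) of the 10 genes, coloured by class, with 95% intervals from limma as bars. The intervals of E2F7, RB1 and RBL1 lie below 0, and those of the other 7 genes include 0.

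Among the activators, E2F1 was the most abundant and its groups overlapped almost fully. E2F1 (ENSG00000101412, chromosome 20, 33675683 to 33686404, minus strand) had 14.3, 12.3, 14.7 and 13.2 FPKM in siCtrl replicates 1 to 4 and 11.5, 14.4, 13.9 and 13.5 FPKM in siPRMT7 replicates 1 to 4. Only siPRMT7 replicate 1 was below the siCtrl range. The log2 fold change was -0.03 (95% interval -0.21 to 0.15, limma adjusted p = 0.877), and it ran from -0.08 (siCtrl replicate 2 left out) to 0.03 (siPRMT7 replicate 1 left out) and was 0.01 with siCtrl replicate 3 left out. The interval leaves room for a change of the size seen in E2F7.

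E2F3 (ENSG00000112242, chromosome 6, 20401906 to 20493715, plus strand) encodes activating and more constant isoforms from separate starts. It had 6.42, 6.96, 6.59 and 7.22 FPKM across siCtrl and 6.04, 6.60, 6.07 and 6.59 FPKM across siPRMT7 libraries. Replicates 1 and 3 of siPRMT7 lay below all siCtrl libraries, and the other two lay within their range (log2 fold change -0.09, 95% interval -0.21 to 0.03, limma adjusted p = 0.473). E2F2 (ENSG00000007968, chromosome 1, 23506430 to 23531220, minus strand) was the least abundant of the 10, with 69 to 123 fragments per library. Its levels were 1.23, 1.08, 0.992 and 1.55 FPKM across siCtrl and 0.813, 1.09, 1.11 and 1.07 FPKM across siPRMT7 libraries. The ratio of means was 0.839, but the groups overlapped, and the counting error was 12.0% at the lowest count (log2 fold change -0.13, limma adjusted p = 0.590). The log2 fold change of E2F2 was -0.06 with siCtrl replicate 4 left out and -0.08 with siPRMT7 replicate 1 left out.

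Of the repressors, E2F4 was the 1 gene of the 10 with a higher mean in siPRMT7 libraries. E2F4 (ENSG00000205250, chromosome 16, 67192169 to 67198918, plus strand), the main E2F of the DREAM complex, had 24.1, 25.5, 24.5 and 22.0 FPKM in siCtrl libraries. It had 24.1, 26.2, 25.6 and 25.3 FPKM in siPRMT7 libraries, of which replicates 2 and 3 were above every siCtrl library. The log2 fold change was 0.07 (95% interval -0.05 to 0.19, limma adjusted p = 0.550), and 0.03 on the TPM scale, where each library is brought to the same total, or without siCtrl replicate 4. E2F5 (ENSG00000133740, chromosome 8, 85177225 to 85217158, plus strand), known to bind RBL2, had 3.28, 3.19, 2.82 and 3.38 FPKM across siCtrl and 3.05, 3.45, 2.67 and 2.84 FPKM across siPRMT7 libraries. Its highest and lowest libraries were both siPRMT7 (log2 fold change -0.06, limma adjusted p = 0.731). Leaving out siPRMT7 replicate 2 or siCtrl replicate 3 gave -0.11 or -0.10 for E2F5, and leaving out siPRMT7 replicate 3 or siCtrl replicate 4 gave -0.02 or -0.03. Of the 5928 exonic bases of E2F5, 969 also belong to C8orf59 on the opposite strand, so the value is uncertain.

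The atypical E2F7 had the smallest p of the 10 genes. E2F7 (ENSG00000165891, chromosome 12, 77021247 to 77065580, minus strand) had 26.1, 26.5, 25.9 and 25.01 FPKM in siCtrl libraries and 22.5, 21.1, 23.5 and 24.1 FPKM in siPRMT7 libraries. Every siPRMT7 library was below every siCtrl library, and the spread was wider in siPRMT7 (SD 1.29, n = 4) than in siCtrl (SD 0.634, n = 4). The ratio of means was 0.882 and the log2 fold change -0.18 (SE 0.0477, 95% interval -0.28 to -0.07), with 2002 to 2673 fragments per library behind it. By unadjusted limma p (0.00503) E2F7 stood at rank 308 of 13436, and the adjusted p was 0.218. The log2 fold change was -0.14 without siPRMT7 replicate 2, the lowest library, and the adjusted p ran from 0.108 with library weights to 0.441 without siCtrl replicate 2.

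E2F8 (ENSG00000129173, chromosome 11, 19224063 to 19241620, minus strand), which pairs with E2F7 in repression, was far less abundant and scattered more. It had 1.69, 1.66, 1.82 and 2.06 FPKM across siCtrl and 1.54, 1.58, 2.19 and 1.31 FPKM across siPRMT7 libraries. In siPRMT7, 3 libraries were below all siCtrl libraries and replicate 3 was above all of them. The log2 fold change was -0.09 (95% interval -0.33 to 0.15, limma adjusted p = 0.711), -0.18 without siPRMT7 replicate 3, -0.03 without siPRMT7 replicate 4 and -0.05 with siCtrl replicate 4 left out. The counting error of E2F8 was 11.3% at its lowest count of 79 fragments, and its coefficient of variation was 10.2% in siCtrl and 22.8% in siPRMT7 libraries.

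All 3 pocket proteins had lower means in siPRMT7 libraries, RBL1 and RB1 with no overlap. RBL1 (ENSG00000080839, chromosome 20, 36996349 to 37095995, minus strand), which encodes p107, had 4.43, 4.49, 4.35 and 4.97 FPKM across siCtrl and 4.25, 3.59, 4.00 and 3.67 FPKM across siPRMT7 libraries. The highest siPRMT7 library (replicate 1, 393 fragments) lay just below the lowest siCtrl library (replicate 3, 392 fragments). These were separate only after scaling, and the counting error of RBL1 was 5.6% at its lowest count. The ratio of means was 0.850 and the log2 fold change -0.19 (SE 0.0625, 95% interval -0.33 to -0.05), with a limma adjusted p of 0.286 (0.130 to 0.559 over the alternatives). RB1 (ENSG00000139687, chromosome 13, 48303726 to 48599436, plus strand), the retinoblastoma tumour suppressor, had 6.62, 6.98, 6.74 and 6.70 FPKM in siCtrl libraries and 6.31, 6.12, 6.32 and 5.64 FPKM in siPRMT7 libraries. The siCtrl values were tight (SD 0.155, n = 4) and the siPRMT7 values wider (SD 0.320, n = 4), through replicate 4. The counting error of RB1 was 4.34% at its lowest count. The log2 fold change of RB1 was -0.13 (SE 0.0476, 95% interval -0.24 to -0.02) and its limma adjusted p was 0.310 (0.187 to 0.557 over the alternatives).

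RBL2 (ENSG00000103479, chromosome 16, 53433977 to 53491649, plus strand), which encodes the p130 of resting cells, was the most abundant pocket protein transcript. It had 7.46, 7.75, 8.37 and 7.54 FPKM across siCtrl and 7.53, 6.58, 7.36 and 7.63 FPKM across siPRMT7 libraries, so the groups overlapped. Its log2 fold change was -0.09 (95% interval -0.22 to 0.04, limma adjusted p = 0.518) and -0.04 or -0.05 with siPRMT7 replicate 2 or siCtrl replicate 3 left out. Of its 7320 exonic bases, 610 also belong to AKTIP on the opposite strand. Of the 5954 bases of RBL1, 211 also belong to AL136172.1 on the opposite strand, which was at 0.036 FPKM. The sources used here do not say whether fragments were assigned by strand.

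**Figure D2:**
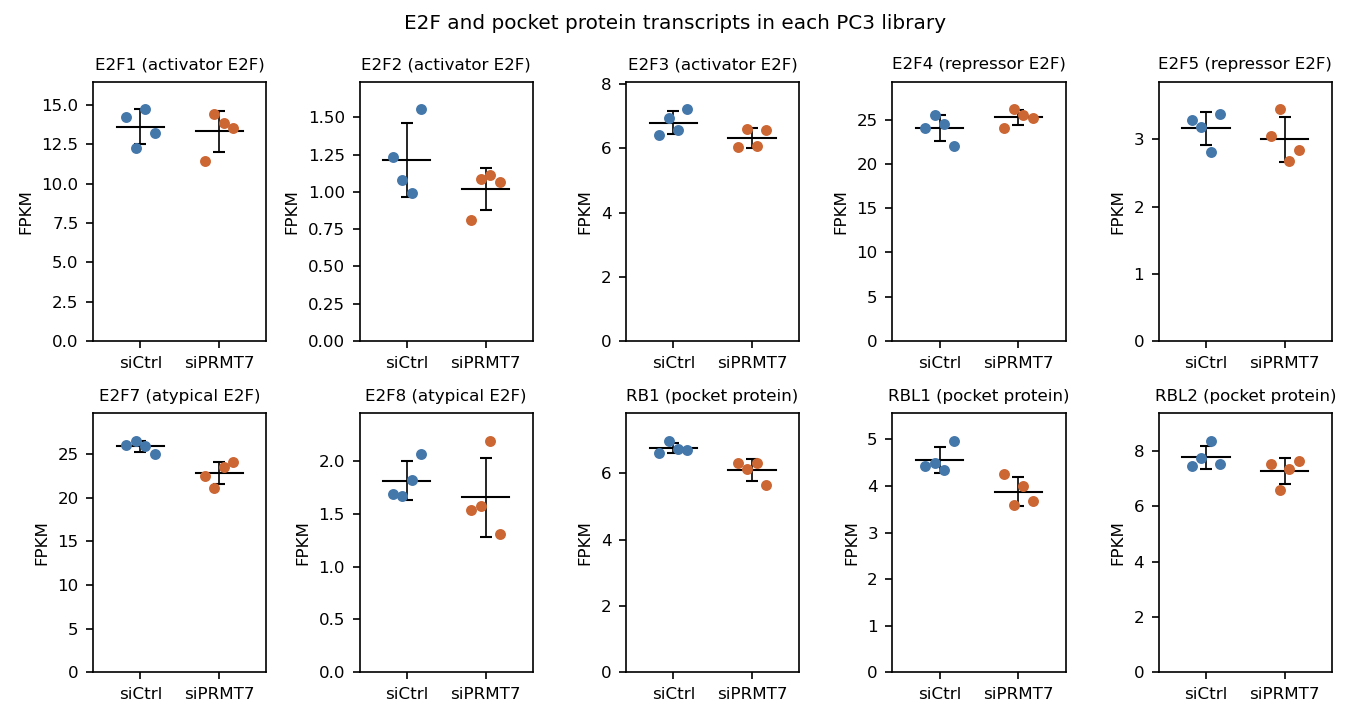
FPKM of each of the 10 genes (vertical axes from 0) in the 4 siCtrl (blue) and 4 siPRMT7 (orange) libraries, in replicate order from left to right. Points are libraries, long lines are means and bars are SD (n = 4). The groups are separate for E2F7, RB1 and RBL1 and overlap for the other 7 genes.

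FPKM divides by all annotated exonic bases of a gene (6303 for E2F7 and 3582 for E2F4), not by the length of the transcript expressed. The order of genes by level therefore depends on the annotation. On this scale, levels in siCtrl spanned from E2F7 at 25.9 ± 0.634 FPKM to E2F2 at 1.21 ± 0.248 FPKM (SD, n = 4). E2F7 and E2F4 (24.0 ± 1.46 FPKM) came first with overlapping ranges, above 86.5% and 85.2% of all genes tested. E2F1, RBL2, E2F3, RB1, RBL1, E2F5, E2F8 and E2F2 followed in that order. The ranges of E2F3 and RB1 overlapped, whereas those of every other pair of neighbours below E2F4 did not.

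The balance between E2F classes was also read within each library, where it does not depend on scaling between libraries. Of the summed FPKM of the 7 E2F genes, the repressors E2F4 and E2F5 made up 34.1 to 37.2% in siCtrl and 37.6 to 39.8% in siPRMT7 libraries. The atypical E2F7 and E2F8 made up 35.8 to 36.5% in siCtrl and 30.5 to 34.6% in siPRMT7 libraries, the lowest in replicate 2 and at least 34.0% in the other 3. Both shares were separate between the groups, and the activators' share overlapped (26.3 to 29.5% and 26.4 to 29.7%). The separate shares rest mainly on E2F4 and E2F7 (24.0 and 25.9 FPKM in siCtrl). E2F5 and E2F8 had 3.17 and 1.81 FPKM there, and each overlapped between the groups. By FPKM, E2F7 exceeded E2F4 in every siCtrl library (ratios 1.08, 1.04, 1.06 and 1.14) and was below it in every siPRMT7 library (0.936, 0.807, 0.920 and 0.955). Whether this ratio lies above or below 1 depends on the gene lengths used, whereas its relative difference between groups does not. The sizes of the shares depend on those lengths too. E2F3 to E2F4 was 0.267 to 0.328 in siCtrl and 0.238 to 0.261 in siPRMT7 libraries. The other ratios computed (E2F1 to E2F4, E2F7 to E2F1, RBL1 to RBL2 and RB1 to RBL2) overlapped between groups. These shares and ratios are a description with no test, and shares within a sum move against each other by construction. They reuse values given above, E2F7 having the smallest p and E2F4 the only higher mean, so their separation is not further evidence. How often ratios or shares of other genes separate was not computed.

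**Figure D3:**
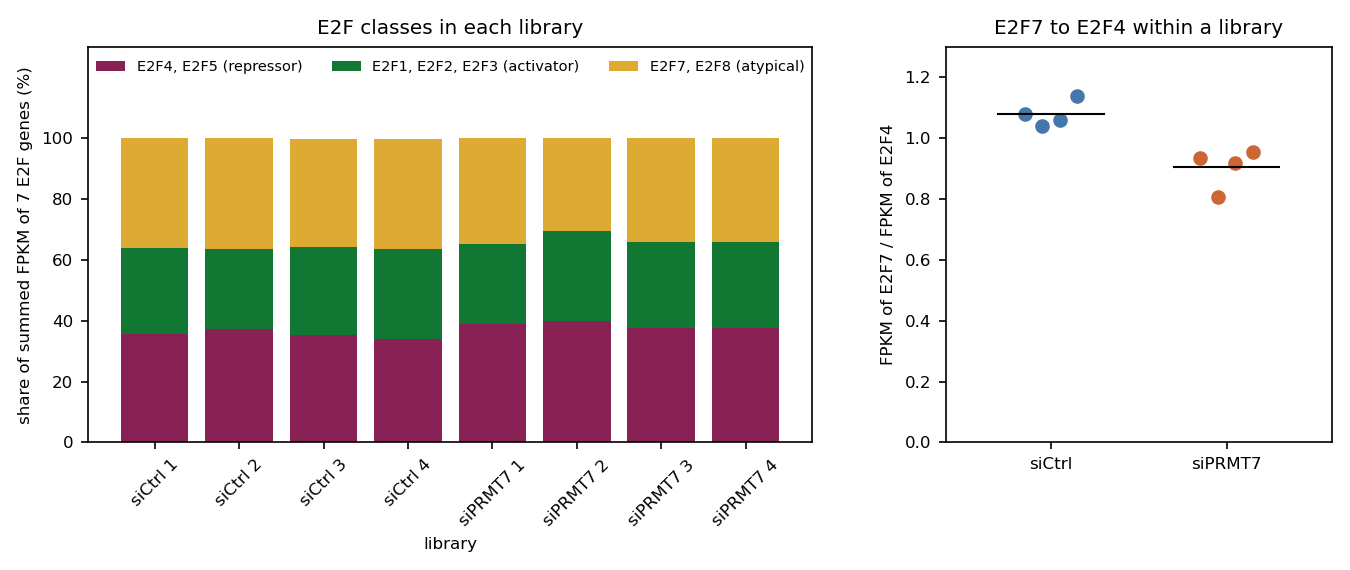
Left, share (%) of the summed FPKM of 7 E2F genes held by each class in each library, as stacked bars. Right, FPKM of E2F7 divided by that of E2F4 in each library, with group means as lines. The ratio is 1.04 to 1.14 in siCtrl and 0.807 to 0.955 in siPRMT7 libraries.

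As class means of log2(FPKM + 1), relative to siCtrl, the pocket proteins were -0.07 to -0.20 in siPRMT7 libraries and -0.04 to 0.02 in siCtrl. The activators (-0.22 to -0.01 against -0.06 to 0.08), the repressors (-0.05 to 0.11 against -0.05 to 0.05) and the atypical genes (-0.20 to 0.03 against -0.02 to 0.04) overlapped with siCtrl. The 6 genes that E2F factors are known to regulate averaged -0.12 over the siPRMT7 libraries (-0.18 to -0.05), and the other 4 averaged -0.05 (-0.07 to -0.03). These ranges overlapped, and in siPRMT7 replicate 3 the order was reversed (-0.046 and -0.062). The difference between these class means was not tested.

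The other genes of the network were read from lists, each described by counts and its median. Of 9 tested genes (DP partners, MuvB subunits, their associated factors and E2F6), 9 were lower in siPRMT7 libraries, against 50.5% of all genes (median log2 fold change -0.10). E2F6 (-0.0008) and LIN9 (-0.01) were near 0. The count was 8 with quantile normalization and 7 without siPRMT7 replicate 4. In 2 of the 9 all siPRMT7 libraries were below all siCtrl libraries, against 4.43% of all genes. This list was chosen with earlier results of these data known, so its counts are not independent evidence. MYBL2, the B-MYB that replaces the repressors on MuvB, had 20.6 ± 0.945 FPKM across siCtrl and 17.6 ± 0.568 FPKM across siPRMT7 libraries (SD, n = 4 each, log2 fold change -0.21, limma adjusted p = 0.172) with no overlap. TFDP2, a DP partner, had 2.34 ± 0.0830 and 2.08 ± 0.0203 FPKM, also with no overlap (limma adjusted p = 0.403). FOXM1, the activator of mitotic genes, had 12.3 ± 0.589 and 10.9 ± 1.22 FPKM (limma adjusted p = 0.404). Library means of the 9 genes were -0.10 to -0.09 in siPRMT7 and -0.01 to 0.01 in siCtrl.

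Upstream, cyclins and kinases that phosphorylate pocket proteins were mixed and CDK inhibitors were higher in the mean. Of 10 tested cyclins, kinases and their activators 6 were lower and 4 higher (median -0.09). CDK2 had 8.80 ± 0.281 FPKM across siCtrl and 7.83 ± 0.528 FPKM across siPRMT7 libraries (SD, n = 4 each, limma adjusted p = 0.291). CDC25A, the phosphatase that activates CDK2, had 5.26 ± 0.220 and 4.545 ± 0.438 FPKM with no overlap (log2 fold change -0.18, limma adjusted p = 0.310). CCND3, a D-type cyclin, went the other way, with 13.8 ± 0.222 and 15.1 ± 0.5003 FPKM (limma adjusted p = 0.284) and no overlap. All 7 CDK inhibitors tested were higher (median 0.25), 5 of them at an unadjusted p under 0.05, which 7.67% of all genes met with a higher level. In 2 of the 7 all siPRMT7 libraries were above all siCtrl libraries, against 4.14% of all genes. The kinase and inhibitor lists were chosen with earlier results of these data known, so these counts are not independent evidence. CDKN1A, which encodes p21, had 23.2 ± 0.325 and 27.7 ± 1.59 FPKM (log2 fold change 0.25, limma adjusted p = 0.133). On the TPM scale, with quantile normalization, with voom or with library weights 6 of the 7 were higher, and CDKN2C, named here after its values were seen, was lower.

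Downstream, target genes of E2F and MuvB complexes were mostly lower. Of 56 tested G1/S targets 48 were lower (median -0.09), 15 of them in all 4 siPRMT7 libraries against all siCtrl libraries. Of 37 tested G2/M targets 35 were lower (median -0.17), 17 of them with such separation, against 4.43% of all genes. In both lists 0 genes passed over all genes tested with limma, and 16 G1/S and 19 G2/M targets had an unadjusted p under 0.05, all lower, against 5.49% of all genes. RRM1, a ribonucleotide reductase subunit, had 20.6 ± 0.577 and 17.6 ± 0.784 FPKM in the respective groups (SD, n = 4 each, log2 fold change -0.22, limma adjusted p = 0.147). UHRF1, a factor of DNA methylation maintenance, had 16.7 ± 0.761 and 14.9 ± 0.280 FPKM (log2 fold change -0.15, limma adjusted p = 0.226). The mitotic kinesin KIF11 had 7.04 ± 0.364 and 5.51 ± 0.213 FPKM (log2 fold change -0.31, limma adjusted p = 0.113). These lists hold genes that earlier results of these data had shown as lower, so their direction is not independent evidence.

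**Figure D4:**
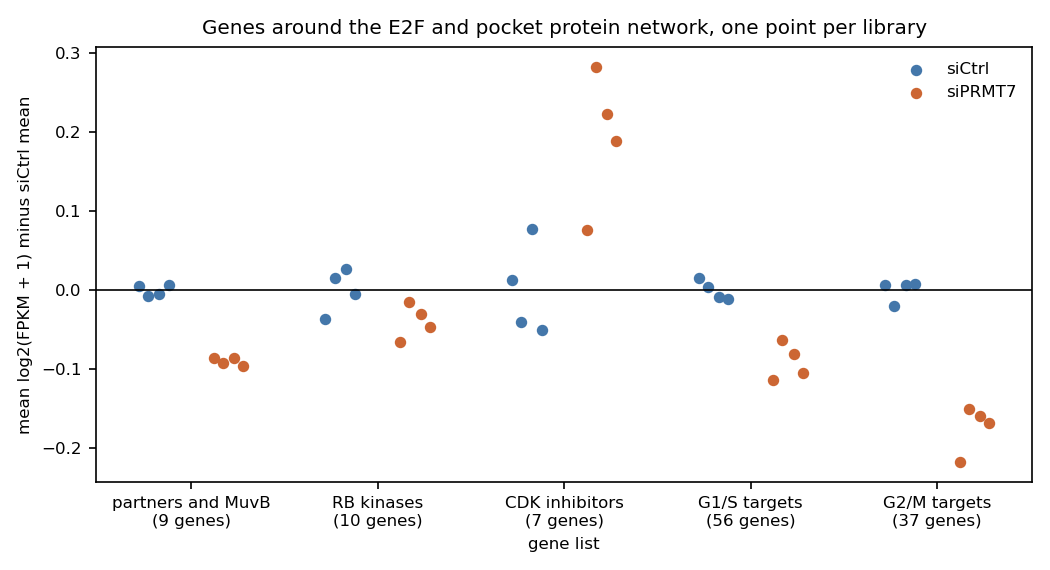
Mean log2(FPKM + 1) of 5 gene lists in each library, as the difference from the siCtrl mean (vertical axis), with siCtrl in blue and siPRMT7 in orange. Points are libraries. The G2/M targets lie at -0.22 to -0.15 in siPRMT7 libraries apart from siCtrl. The CDK inhibitors lie at 0.08 to 0.28, overlapping siCtrl replicate 3 at 0.08.

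Interferon response genes were higher in the mean in 12 of 12 tested (median log2 fold change 0.27), 11 of them with complete separation, against 4.14% of all genes. With limma 1 of the 12 passed over all genes tested, RSAD2 (adjusted p = 0.0125). Their mean lay 0.24 to 0.33 above siCtrl in the siPRMT7 libraries, and their summed level was 3640 to 3850 FPKM across siCtrl and 4180 to 5300 FPKM across siPRMT7 libraries. The interferon list, too, was chosen with earlier results of these data known, so its direction is not independent evidence. Its part in the levels of the E2F and pocket protein genes was not tested.

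The 4 promoters shown above can be set beside these values. Of the 3 genes with separate groups, RBL1 had a match, and the windows of E2F7 and of the internal RB1 start had none. E2F1, with a pair of matches, was the gene with the log2 fold change nearest to 0. Of the G1/S targets, 27 of the 51 in the promoter table had a match, as had 3 of 33 G2/M targets. Among tested genes outside the 10, those with a match (626 genes) had a median log2 fold change of -0.02 with 56.4% lower, and those without (8462 genes) had -0.0029 with 51.3% lower. All 4 siPRMT7 libraries lay below all siCtrl libraries for 7.67% of the former and 5.08% of the latter. For the 596 genes with a match outside the G1/S and G2/M lists, 55.2% were lower (median -0.018) and 6.71% had such separation. These are descriptions with no test.

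The genes most like E2F1, E2F8 and RB1 over the 8 libraries were sought among 13435 others by Pearson's r of log2(FPKM + 1), as a description in which all genes share the same libraries. For RB1 they were AC233280.2 (r = 0.98), SLC14A1 (0.96) and PPP2R1B (0.95). For E2F1 they were DDX28 (0.96), NPM1P27 (0.95) and ARMCX5 (0.94). For E2F8 they were PXK (0.93), TACC3 (0.92) and POLD3 (0.89). In all, 28 genes of the 13435 had r above 0.9 with RB1, 18 with E2F1 and 2 with E2F8. The number to be met by chance with 8 libraries was not computed, so these counts do not show shared regulation.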

How the data were processed

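The authors deposited 1 table of FPKM values for 8 libraries. Per the submitters' processing notes, cutadapt 2.5, HISAT2 2.1.0 and featureCounts 1.6.3 were used. The notes name a mouse build, but start, end and strand of all 58735 genes match GENCODE release 29 on GRCh38, and coordinates are on that build. FPKM multiplied by gene length gave whole fragments within 0.01 for 100% of values above 0, so totals and counting errors were rebuilt. Counting errors cover counting only. Groups came from the sample titles.

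Genes with 1 FPKM or more in 4 or more libraries were analysed as log2(FPKM + 1), which understates changes of low genes, with limma 3.58.1 in R 4.3.3 (variance trend, two-sided, Benjamini-Hochberg over 13436 genes, threshold 0.05). Alternatives were other pseudocounts, filters, scalings, voom on rebuilt fragments, library weights, a replicate block and leaving out each library. The fit was tested on simulated data. The text names the 10 genes, PRMT7 and the 3 genes most like E2F1, E2F8 and RB1. From the pathway lists it names some of the 4 genes with the smallest p. CDKN2C, E2F6, LIN9, ISG15, PRC1 and LIN37 were named after their values were seen. Markers were named by their level. Members and lists were chosen with earlier results of these data known. Planned protein stretches were not analysed here.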

Additional observations from a re-analysis of the deposited data

Results flagged for a closer look

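In groups of 4 libraries, a lowest or highest value was marked when its gap to the nearest other, as a share of the range, exceeded Dixon's 95% critical value. Of 70 such groups 10 were marked. Chance marks about 1 in 20 of independent, normally distributed groups. Many of the 70 share genes and libraries, so this rate cannot show whether 10 is more than chance. E2F2 was lowest in siPRMT7 replicate 1, at 0.813 FPKM against 1.07 FPKM next. The mean of the atypical genes was 0.0258 above siCtrl in siPRMT7 replicate 3, against -0.17 next, and their share of E2F FPKM was 30.5% in siPRMT7 replicate 2, against 34.0% next. The summed FPKM of the 7 E2F genes was lowest in siCtrl replicate 4 (74.5, next 77.0) and in siPRMT7 replicate 1 (69.5, next 74.5). Within siCtrl libraries, E2F1 to E2F4 was lowest in replicate 2 (0.481, next 0.593) and RB1 to RBL2 in replicate 3 (0.806, next 0.887). E2F3 to E2F4 was highest in siCtrl replicate 4 (0.328, next 0.273). The mean of the G2/M targets was lowest in siCtrl replicate 2, at -0.0204 against 0.00605 next. The mean of the other-cell markers, which rests on PECAM1 and COL1A1, was highest among siPRMT7 libraries in replicate 1, at 0.0843 against -0.0732 next.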

How the results depend on the processing

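Under all 17 alternatives 0 of the 10 genes were called with limma, and 9 had a lower mean except without siCtrl replicate 3 or siPRMT7 replicate 1 (8 each), where the log2 fold change of E2F1 turned to 0.0055 and 0.035 (-0.076 to 0.035 without 1 library). The count of genes called, 2 as reported, was 1 with pseudocount 0.1 or quantile normalization, 5 with no filter, 14 with voom, 58 with library weights and 0 to 4 without 1 library. It was 0 with the replicate block, under which 0 of the 10 genes were called. Deviations of same-numbered libraries had r from -0.03 to 0.06, within the -0.12 to 0.13 of differently numbered ones. Such values cannot settle whether the numbers pair the libraries, which the labels do not state. The median of the partner and MuvB list was -0.13 on the TPM scale and with voom, and -0.0654 to -0.113 without 1 library. The median of the G2/M targets was -0.20 with pseudocount 0.1, -0.21 on the TPM scale, -0.21 with voom and -0.15 to -0.19 without 1 library. On the TPM scale the kinase list had -0.12 and the G1/S targets -0.12, and the median of all genes was -0.04. Depth limits E2F2 and E2F8 most.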

Other observations

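Both PRC1 and LIN37 were near 0 in every library, singled out here after their values were seen. PRC1, a spindle midzone protein, averaged 0.109 FPKM in siCtrl libraries, and AC068831.7 on the same strand shares 3181 of its 5525 exonic bases. LIN37, a MuvB subunit, averaged 0.226 FPKM in them, and AD000671.1 on the same strand shares 752 of its 2820 exonic bases. None of the 10 E2F and pocket protein genes shares exonic bases with a gene on the same strand. The sources used here do not say how shared bases were counted.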
